A study of Mus musculus with 49 samples.

Results

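The comparison described here sets cells sorted for green fluorescent protein (GFP) from the Bmi1-GFP reporter line against the brightest GFP cells of the Lgr5-GFP-Cre reporter line. Its members were chosen by name as the 3 Bmi1-GFP and the 3 Lgr5-GFP-Cre libraries, which are 6 of the 49 samples of the series and 6 of the 25 RNA sequencing libraries in the deposited counts table. Both groups came from adult mice on a B6;129 mixed background, and the epithelium of the proximal part of the small intestine was taken without any treatment. Bmi1-GFP mice carried 1 reporter allele, labelled Bmi-1GFP/+, and GFP-positive cells were collected. Lgr5-GFP-Cre mice carried the allele labelled Lgr5EGFP-IRES-CRE-ERT2, and the cells of highest GFP were collected. Crypts of both lines were released in 5 mM EDTA for 45 min and dissociated with TrypLE for 45 min. RNA extraction and the SMART-Seq v4 library kit were also the same. Each reporter sits in the gene it is named after, so a sorted cell is defined by activity of that locus and by the sort gate. Replicates are labelled biological, but the labels leave unsaid which came from the same animal or sort. The p-values thus measure a spread between libraries, which the model pooled over 24 libraries of 11 groups, these 6 among them.

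Stem cells at the base of intestinal crypts divide throughout life and are marked by the receptor gene Lgr5, whose product binds R-spondins and amplifies Wnt signals. Bmi1 encodes a subunit of Polycomb repressive complex 1. Endocrine cells of the gut are electrically excitable: nutrients acting on receptors and transporters change membrane voltage and cyclic AMP, calcium enters through voltage-gated channels, and peptide hormones and serotonin leave dense granules through SNARE fusion proteins. Tuft cells taste luminal contents through a related cascade that ends in the cation channel Trpm5. Dividing crypt cells copy DNA, build ribosomes and make nucleotides.

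The libraries held between 13623911 and 22055980 counts. A read was found for 15799 to 16047 genes in Bmi1-GFP and for 14113 to 15069 genes in Lgr5-GFP-Cre libraries, and correlations within groups were 0.965 to 0.985. Of 14837 genes tested with edgeR's quasi-likelihood test, 50.4% were called at a Benjamini-Hochberg adjusted p below 0.05 (27.9% higher and 22.5% lower in Bmi1-GFP), and 57.7% had no overlap between the 3 and 3 libraries. The median log2 fold change over all genes tested was 0.09. Genes named below were mostly chosen by low adjusted p, so a lack of overlap stated for them follows largely from that choice. A list is described below by its called members, to be read against those percentages. Levels are library-size-scaled counts (CPM, with edgeR's TMM factors), given in the order of replicates 1, 2 and 3 and for Bmi1-GFP first. CPM is not corrected for gene length, so levels are compared between groups and never between genes. Log2 fold changes are Bmi1-GFP over Lgr5-GFP-Cre, with their standard error (SE). In sorted bulk samples, fewer cells of a type and less RNA per cell cannot be told apart.

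**Figure D1:**
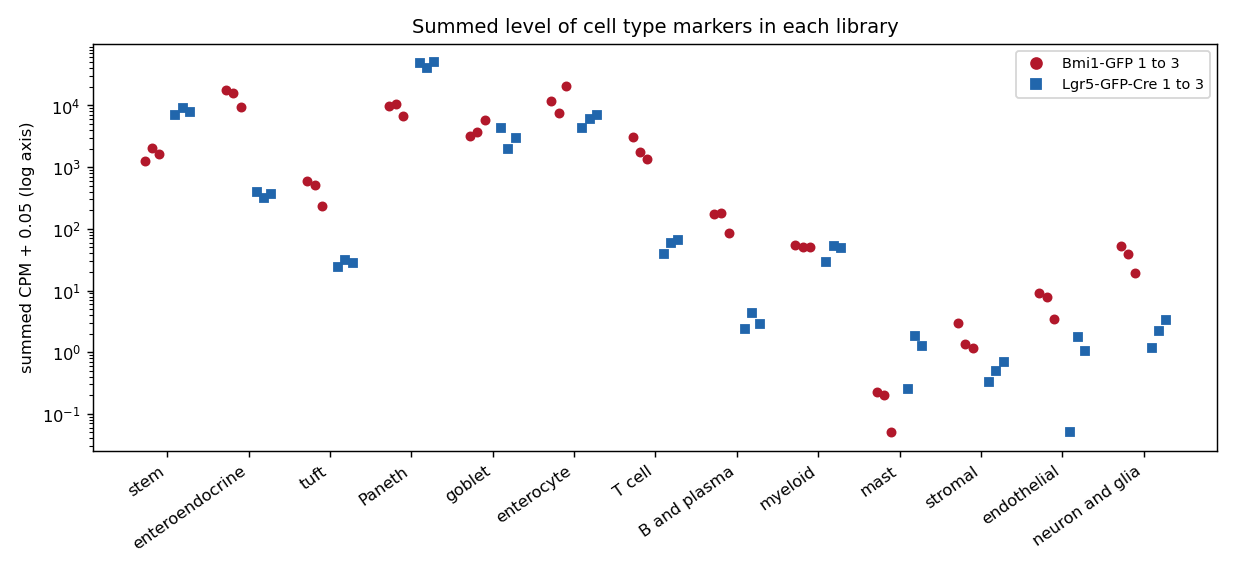
Summed CPM + 0.05 (log axis) of marker genes of 13 cell types in each library, with Bmi1-GFP replicates as red circles and Lgr5-GFP-Cre replicates as blue squares. Enteroendocrine markers sum to 9380 to 17600 CPM in Bmi1-GFP against 321 to 392 CPM, and T cell markers to 1360 to 3110 against 38.4 to 66 CPM. The sums of myeloid markers overlap between groups, although 4 of 13 tested were called higher and 1 lower.

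The labelled identities were checked on markers. All 12 crypt base stem cell markers were lower in Bmi1-GFP, with a sum of 1260 to 2010 CPM against 7130 to 9080 CPM. All 18 enteroendocrine markers and 10 of 11 tuft cell markers tested were higher, the tuft markers with a sum of 232 to 600 CPM against 23.6 to 31.4 CPM. Enterocyte markers summed to 7520 to 20500 CPM against 4280 to 6960 CPM (7 of 10 higher), and Paneth cell markers to 6870 to 10700 against 40500 to 49800 CPM (6 of 8 lower). Markers of T cells, the lymphocytes that lie between epithelial cells, were higher for all 17 tested, and those of B and plasma cells reached 87 to 184 CPM in Bmi1-GFP against 2.34 to 4.31 CPM. Markers of several cell types were thus higher in Bmi1-GFP. How much of each result below comes with these types was not tested, and their sums are given beside the lists that move with them.

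Genes of regulated secretion formed one side of the comparison. Sorted by function, the peptide maturation list (12 listed, 12 tested) had 9 members higher and 0 lower, with a median log2 fold change of 3.47, and the synaptic-type exocytosis list (40 listed, 35 tested) had 25 higher and 1 lower, with a median of 3.00. Enteroendocrine markers moved with both, at 17600, 15800 and 9380 CPM summed in Bmi1-GFP replicates 1 to 3, so replicate 3 was the lowest. Summed over the list, peptide maturation genes were at 1020, 1130 and 815 CPM against 136, 191 and 155 CPM.

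**Figure D2:**
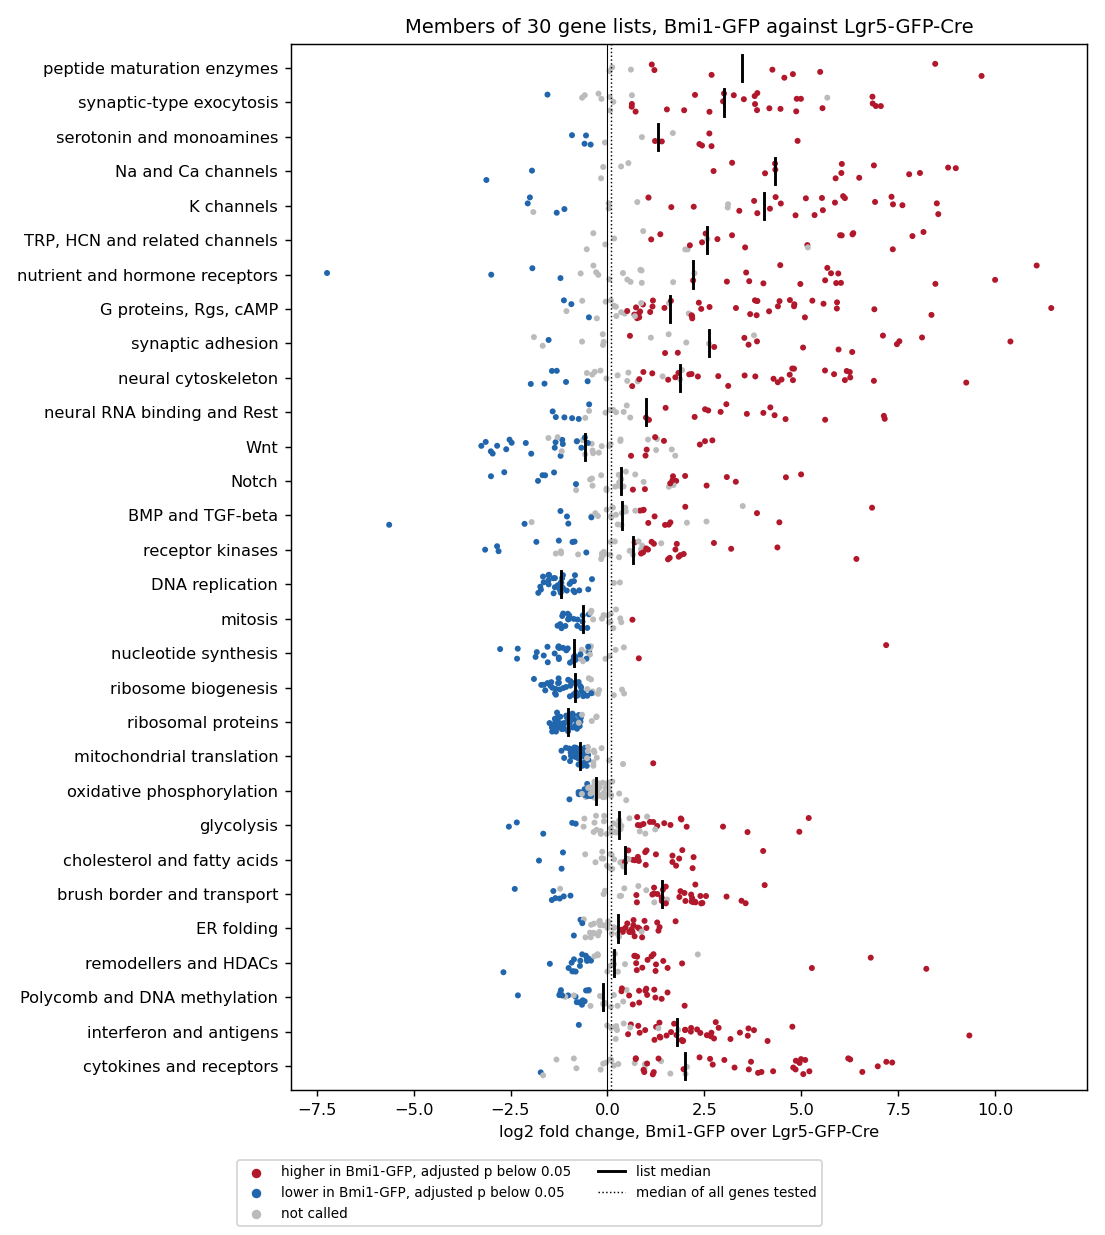
Log2 fold change (horizontal axis) of every tested member of 30 gene lists (rows), red where called higher, blue where called lower and grey where not called, with the list median as a bar and the median of all genes tested (0.09) as a dotted line. Medians run from 4.32 for sodium and calcium channels to -1.21 for DNA replication.

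Carboxypeptidase E (Cpe), which trims basic residues from prohormones, was at 524, 656 and 453 CPM in Bmi1-GFP and at 14.3, 10.7 and 11.5 CPM in Lgr5-GFP-Cre (log2 fold change 5.48, SE 0.36, adjusted p = 1.87e-08). Prohormone convertase 1 (Pcsk1), the protease that cuts at paired basic residues, was at 92.4, 127 and 83.6 CPM against 3.51, 5.92 and 6.33 CPM (log2 4.25, SE 0.34, adjusted p = 2.39e-07). Scg5, the chaperone of convertase 2, was at 48.3, 48.4 and 38.1 CPM against 3.72, 0.386 and 0.917 CPM (log2 4.78, SE 0.64, adjusted p = 1.73e-05). In each of these genes every Bmi1-GFP library was above every Lgr5-GFP-Cre library, with replicate 3 the lowest of the Bmi1-GFP libraries. Qpct, the glutaminyl cyclase that caps peptides with pyroglutamate, was at 19.9, 13.3 and 26.9 CPM against 0, 0 and 0.0437 CPM (adjusted p = 4.54e-06) and was highest in Bmi1-GFP replicate 3.

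The upstream sequence of Pcsk1 is shown because the gene combines a large change with a palindromic cyclic AMP response element (CRE). It covers the 250 bases before a RefSeq transcript start in GRCm38.p6 (chr13:75089607-75089856, plus strand; this start lies 437 bases inside the outermost RefSeq start of the gene), 5′ to 3′, and the capitals mark the letters TGACGTCA, searched on both strands.
Pcsk1: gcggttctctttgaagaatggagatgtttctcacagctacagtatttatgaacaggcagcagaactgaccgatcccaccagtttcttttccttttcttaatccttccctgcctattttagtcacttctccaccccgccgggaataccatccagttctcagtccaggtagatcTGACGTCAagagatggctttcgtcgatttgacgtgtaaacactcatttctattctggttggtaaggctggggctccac
The match begins 78 bases before this start. The same letters were found in 2.75% of the 11108 promoters of tested genes, in 2.57% of those called higher and in 2.55% of those called lower. The match is a description of the sequence and not a binding site.

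Among exocytosis genes the calcium-dependent priming factor Cadps was at 17.4, 21.6 and 12.8 CPM against 0.138, 0.257 and 0.0437 CPM (log2 6.92, SE 0.69, adjusted p = 1.35e-06). The active zone scaffold Pclo was at 30.9, 33.1 and 13.2 CPM against 0, 0.257 and 0.349 CPM (log2 6.84, SE 0.78, adjusted p = 4.11e-06). The priming factor Unc13a (10.6, 7.51 and 4.33 against 0.207, 0.322 and 0.218 CPM, adjusted p = 2.06e-06) and the vesicle protein Syp (28.3, 26.5 and 20.3 against 0.896, 2.38 and 1.83 CPM, adjusted p = 3.54e-06) rose as well. The groups did not overlap for these 4 genes, and Bmi1-GFP replicate 3 was the lowest of its group in each. Of 6 synaptotagmins, the calcium sensors of fusion, 6 were called higher. The exception to the direction was Bsn, a large scaffold related to Pclo, which fell from 46.3, 26.9 and 27.2 CPM in Lgr5-GFP-Cre to 13.4, 11.5 and 9.39 CPM in Bmi1-GFP (log2 -1.55, SE 0.25, adjusted p = 9.23e-05). Rab3d, a GTPase of secretory granules, was not called (82, 93.2 and 57 against 96.2, 146 and 106 CPM, adjusted p = 0.0798).

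The serotonin and monoamine list (15 listed, 14 tested) had 7 higher and 4 lower and a median of 1.31. Tph1, the rate-limiting enzyme of serotonin synthesis in the gut, was at 515, 273 and 113 CPM against 13, 9.52 and 7.73 CPM (log2 4.90, SE 0.51, adjusted p = 1.81e-06). The vesicular transporters Slc18a1 (102, 66.6 and 31.1 against 11.6, 8.49 and 11 CPM, adjusted p = 1.24e-05) and Slc18a2 (13.7, 27 and 8.78 against 3.58, 1.8 and 2.62 CPM, adjusted p = 0.000112) load monoamines into vesicles. Gch1, which begins the synthesis of the tetrahydrobiopterin cofactor of Tph1, was at 76.4, 84.1 and 56 CPM against 18.1, 11.2 and 10.7 CPM (log2 2.44, SE 0.35, adjusted p = 3.15e-05). All libraries of these genes separated by group, and Tph1 spread more than 4-fold within Bmi1-GFP. Spr, which completes its synthesis, fell by 0.91 on the log2 scale (71.8, 85.2 and 89.1 against 180, 138 and 145 CPM, adjusted p = 8.18e-05), and Qdpr, which recycles it, fell by 0.59 (189, 151 and 122 against 262, 203 and 230 CPM, adjusted p = 0.0109, and 0.0649 without Bmi1-GFP replicate 3). Maob, a monoamine oxidase, was not called (85.9, 66.9 and 114 against 33.3, 59.8 and 51.1 CPM, adjusted p = 0.104, and 0.026 in the 6-library fit), although its groups did not overlap.

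The sodium and calcium channel list and the potassium channel list had the largest medians of the 51 lists. Of 20 sodium and calcium channel genes tested (27 listed), 14 were higher and 2 lower with a median log2 fold change of 4.32. Of 34 potassium channel genes tested (53 listed), 23 were higher and 4 lower with a median of 4.03. Transient receptor potential (TRP), HCN and related cation channels (30 listed, 25 tested) had 16 higher and 0 lower with a median of 2.58. Genes called higher in the sodium and calcium channel list spanned a median of 168 kb of genome, and long genes were called higher more often over the whole table, as described further below. Whether gene span has a part in the channel results was not tested.

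Cacna2d1, the auxiliary subunit that brings calcium channels to the membrane, was at 23.9, 19.7 and 9.96 CPM against 0.0689, 0.0643 and 0.262 CPM (log2 6.87, SE 0.55, adjusted p = 3.53e-07). Cacna1a, the P/Q-type pore that triggers transmitter release, was at 61.4, 54.3 and 31.9 CPM against 5.92, 8.36 and 7.82 CPM (log2 2.74, SE 0.30, adjusted p = 3.25e-06). Cacna1h, a low-voltage T-type pore, was at 24.6, 21.1 and 16.2 CPM against 0.0689, 0.708 and 0.262 CPM (log2 5.88, SE 0.67, adjusted p = 5.37e-06). No library of one group reached the other in these 3 genes, and Bmi1-GFP replicate 3 was the lowest of its group in all 3, as for the enteroendocrine sum. Among 14 genes of the Cacn family 10 were higher and 0 lower, while Cacnb3, an auxiliary beta subunit, was not called (28.3, 31.4 and 22.3 against 19.4, 25.9 and 19 CPM, adjusted p = 0.252). Of 6 sodium channel genes 4 were higher and 2 lower. The pore Scn3a was at 38.7, 28.6 and 13.5 CPM against 0.207, 0.45 and 0.524 CPM (log2 6.03, SE 0.70, adjusted p = 4.54e-06), whereas the beta subunit Scn2b was at 3.23, 4.76 and 4.89 CPM against 13.8, 15.8 and 20.2 CPM (log2 -1.95, SE 0.50, adjusted p = 0.00349).

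Among the potassium channels, Kcnh6, a voltage-gated channel of the ERG family, was at 36.1, 44.1 and 18.4 CPM against 2.41, 1.29 and 1.22 CPM (log2 4.33, SE 0.40, adjusted p = 7.6e-07). Kcnk16, a background channel of the K2P family, was at 10.6, 10.6 and 5.11 CPM against 0.207, 0.257 and 0.175 CPM (log2 5.34, SE 0.62, adjusted p = 7.49e-06). The delayed rectifier genes Kcnb2 (14.2, 10.8 and 3.98 against 0.0689, 0.193 and 0.306 CPM, adjusted p = 1.6e-05) and Kcnc1 (27.5, 10.5 and 9.79 against 0, 0.386 and 0.262 CPM, adjusted p = 3.47e-05) also rose. In the opposite direction Kcne3, the beta subunit that holds Kcnq1 open in crypts, fell to 96.3, 131 and 129 CPM from 705, 325 and 449 CPM (log2 -2.06, SE 0.28, adjusted p = 1.73e-05). Its partner Kcnq1, outside the naming rule and chosen after its values were seen, fell to 102, 139 and 101 CPM from 341, 586 and 440 CPM (log2 -2.0, SE 0.34, adjusted p = 0.000157). The calcium-activated channel Kcnn4 fell to 108, 120 and 101 CPM from 262, 310 and 243 CPM (log2 -1.31, SE 0.17, adjusted p = 1.38e-05). These basolateral channels set the driving force for chloride secretion, and because of them the list sum was lower in Bmi1-GFP, at 652, 732 and 577 CPM against 1620, 1510 and 1400 CPM, although most members were higher.

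Of the TRP channels, Trpa1, an irritant sensor, was at 58.9, 66.3 and 22.6 CPM against 0.344, 1.09 and 0.83 CPM (log2 6.0, SE 0.78, adjusted p = 1.2e-05). Trpm2, opened by ADP-ribose, was at 32.9, 18.6 and 7.78 CPM against 0.0689, 0.193 and 0.0873 CPM (log2 7.36, SE 0.75, adjusted p = 2.11e-06). Trpm5, the transduction channel of tuft cells, was at 153, 141 and 69 CPM against 1.52, 3.92 and 4.54 CPM (log2 5.15, SE 1.01, adjusted p = 0.000476). Replicate 3 was the lowest Bmi1-GFP library for each, as for the summed tuft cell markers (600, 506 and 232 CPM), which include Trpm5 itself. The enteroendocrine sum was also lowest there, and the part of either cell type was not tested. Trpm7, a widely expressed magnesium channel with a kinase domain, differed less (55.1, 56.1 and 52.7 against 21.2, 27 and 26.8 CPM, log2 1.13, adjusted p = 0.000317), and Trpm4 was not called (80.3, 65.4 and 49.4 against 61.2, 128 and 93.2 CPM, adjusted p = 0.18). The higher calls in this list numbered 8 in the fit of the 6 libraries alone, 9 without Bmi1-GFP replicate 1 and 10 without Lgr5-GFP-Cre replicate 3.

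**Figure D3:**
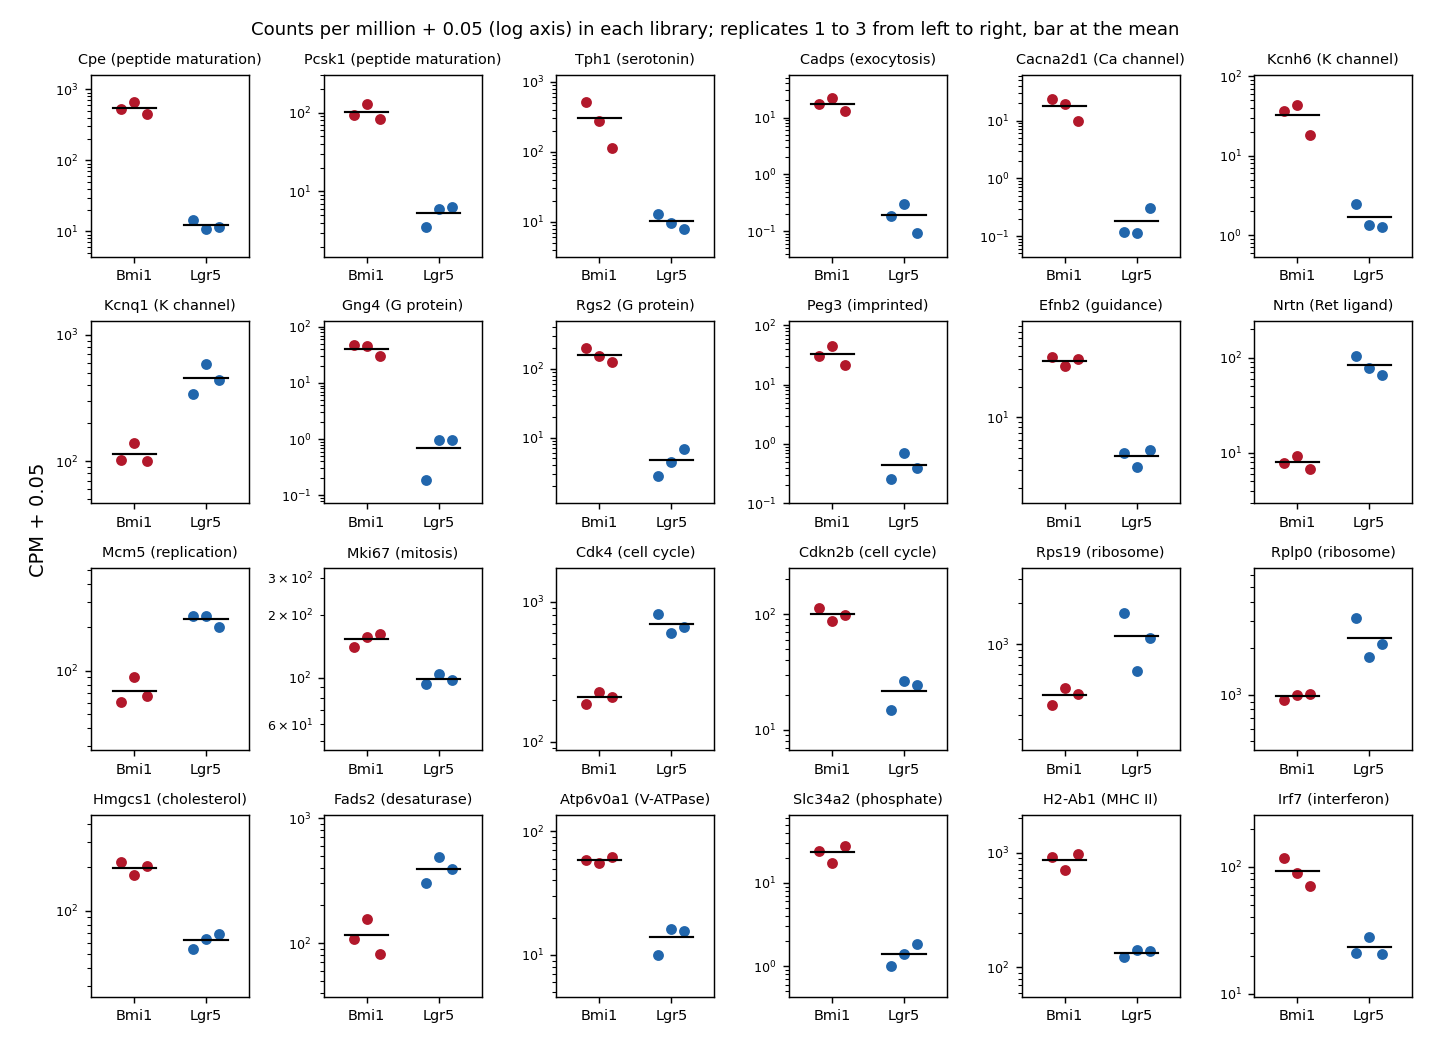
CPM + 0.05 (log axis) of 24 genes in each library, with replicates 1 to 3 from left to right, Bmi1-GFP in red, Lgr5-GFP-Cre in blue and a bar at the group mean. The groups do not overlap in any of the 24 panels, which run from Cpe (453 to 656 against 10.7 to 14.3 CPM) to Mki67 (141 to 162 against 92.7 to 104 CPM). The panels show called genes, mostly chosen by low adjusted p, and 57.7% of all genes tested had no overlap.

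Receptors for nutrients, hormones and paracrine signals (42 listed, 33 tested) had 16 members higher and 4 lower, with a median of 2.21. The galanin receptor Galr1 was at 16.6, 15.2 and 9.22 CPM in Bmi1-GFP and had 0 reads in all 3 Lgr5-GFP-Cre libraries (at least 234-fold higher against a floor of 3 reads over the group, adjusted p = 2.04e-05). The calcium-sensing receptor Casr was at 4.47, 8.44 and 6.55 CPM against 0 reads (at least 116-fold higher, adjusted p = 3.28e-05). The short-chain fatty acid receptor Ffar2 was at 52.4, 44.8 and 25.4 CPM against 4, 4.76 and 5.68 CPM (log2 3.08, SE 0.35, adjusted p = 4.36e-06), and the somatostatin receptor Sstr5 at 28, 25.4 and 15.5 CPM against 0.0689, 0.257 and 0.83 CPM (log2 5.76, SE 0.72, adjusted p = 1.11e-05). All 4 separated the groups. Receptors that were lower in Bmi1-GFP included Adora1, an inhibitory adenosine receptor (1.29, 4.09 and 1.53 against 13.5, 24.6 and 17.3 CPM, log2 -3.0, adjusted p = 0.000129), and Adra2a, an inhibitory adrenergic receptor (20.7, 27.6 and 18.3 against 79.1, 106 and 69.7 CPM, log2 -1.94, adjusted p = 0.000502). Vipr1, the receptor of vasoactive intestinal peptide, was not called (108, 106 and 119 against 111, 153 and 129 CPM, adjusted p = 0.295).

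Transmitter receptors (50 listed, 26 tested) had 13 higher and 1 lower, with a median of 2.09. Gabbr1, a subunit of the GABA-B receptor, was at 8.87, 4.87 and 6.38 CPM against 2.48, 1.09 and 0.742 CPM (log2 2.24, adjusted p = 0.000521). The ATP-gated channel P2rx7 was at 7.88, 5.02 and 8.35 CPM against 0.276, 1.03 and 0.786 CPM (log2 3.32, adjusted p = 0.000681); T cells also express it, T cell markers were higher in the same libraries, and their part in its change was not tested. P2ry6, a receptor for UDP, was the lower member (4.82, 6.73 and 3.28 against 7.3, 13.8 and 14.4 CPM, adjusted p = 0.00956). Higher calls fell to 7 in the 6-library fit and without Lgr5-GFP-Cre replicate 1, and the lower call was lost without Bmi1-GFP replicate 3.

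The relay from these receptors changed broadly. G proteins, their Rgs inhibitors and the cyclic AMP enzymes (60 listed, 56 tested) had 39 members higher and 3 lower, with a median of 1.61. Rgs proteins speed the switching-off of G proteins, and 12 of 15 were higher and 1 lower. Adenylate cyclases, which make cyclic AMP, were higher in 7 of 8 cases, and phosphodiesterases, which break down cyclic nucleotides, in 5 of 9 cases, with 0 lower in both families. Adcy2 was at 23.3, 18.5 and 11.4 CPM against 0 reads in Lgr5-GFP-Cre (at least 302-fold higher, adjusted p = 1.99e-06). Rgs2 was at 199, 156 and 127 CPM against 2.69, 4.38 and 6.81 CPM (log2 5.09, SE 0.40, adjusted p = 2.02e-07). The gamma subunit Gng4 was at 47.8, 45.2 and 30.4 CPM against 0.138, 0.901 and 0.917 CPM (log2 5.91, SE 0.55, adjusted p = 8.12e-07). Groups did not overlap in these 3 genes. The stimulatory subunit Gnas, a complex imprinted locus, was lower (673, 677 and 675 against 1012, 901 and 908 CPM, log2 -0.48, SE 0.14, adjusted p = 0.00703), as was Gna12 (11.1, 18.5 and 13.7 against 27.3, 30.8 and 24.5 CPM, adjusted p = 0.00264), and Prkar1a, a regulatory subunit of protein kinase A, was not called (314, 299 and 264 against 266, 241 and 242 CPM, adjusted p = 0.139, and 0.0289 by DESeq2's Wald test). Higher members spanned a median of 105 kb and those not called 35.6 kb.

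Of the 14837 genes tested, 346 had at least 10 reads in Bmi1-GFP and 0 reads in all 3 Lgr5-GFP-Cre libraries, and 319 of them were called. The reverse held for 21 genes, of which 18 were called. Genes were picked here by the same reads that were tested, so most of these calls follow from that choice. Genes could also pass the filter through any of the 11 groups fitted, so both numbers depend on the groups in the fit. One gene without a read in Bmi1-GFP was Npy2r, the receptor for peptide YY, at 1.1, 1.16 and 0.611 CPM in Lgr5-GFP-Cre (at least 17.9-fold lower in Bmi1-GFP, adjusted p = 0.00341), chosen after its values were seen.

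Gene families first described in neurons followed. The synaptic adhesion list (51 listed, 27 tested) had 15 higher and 1 lower with a median of 2.62, the neural cytoskeleton list (52 listed, 47 tested) 29 higher and 6 lower with a median of 1.87, and the list of neural RNA-binding proteins and the repressor Rest with its partners (38 listed, 31 tested) 16 higher and 6 lower with a median of 0.99. Markers of enteric neurons and glia were also higher, though low, at 52.8, 39.4 and 19.3 CPM summed against 1.1, 2.12 and 3.23 CPM, with 4 of 7 called higher. The marker with the clearest level was Ret, at 29.4, 23.5 and 12.4 CPM against 0.344, 0.579 and 1.05 CPM, which gut endocrine cells also express, and the part of neurons in these lists was not tested.

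Ncam2, a homophilic adhesion molecule, was at 9.81, 10.6 and 5.24 CPM against 0 reads in Lgr5-GFP-Cre (at least 146-fold higher, adjusted p = 2.33e-05). The dense-core granule phosphatase relatives Ptprn (18.7, 8.55 and 4.68 against 0.138, 0.0643 and 0.262 CPM, log2 5.96, adjusted p = 2.38e-06) and Ptprn2 (39.8, 39.5 and 21.9 against 1.58, 4.83 and 2.36 CPM, log2 3.53, adjusted p = 3.21e-06) rose together. The scaffold Homer1 was higher by a smaller amount (23.2, 14.7 and 16.2 against 6.61, 5.53 and 7.12 CPM, log2 1.48, adjusted p = 5.65e-05), while its relative Homer2 was not called (51, 53.7 and 58.7 against 57.7, 59.3 and 60.8 CPM, adjusted p = 0.587). Dlgap1, a postsynaptic scaffold, was the only lower member (2.82, 1.76 and 2.01 against 6.54, 5.6 and 6.73 CPM, adjusted p = 0.0176), a call that was lost without Bmi1-GFP replicate 2 or 3, and 2 members were lower in the 6-library fit.

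In the cytoskeleton list, Map1b, which stabilises axonal microtubules, was at 57.6, 67.1 and 36.5 CPM against 1.17, 0.193 and 0.917 CPM (log2 6.12, SE 0.55, adjusted p = 7.29e-07). The kinesin Kif1b, a motor for vesicles and mitochondria, was at 69.5, 59.1 and 59.2 CPM against 17, 20.8 and 18 CPM (log2 1.75, SE 0.15, adjusted p = 3.53e-07). Dpysl2, a tubulin-binding protein of growth cones, was at 47, 43.4 and 29 CPM against 5.65, 3.8 and 4.37 CPM (log2 3.11, SE 0.30, adjusted p = 1.13e-06). These genes separated the groups, and 7 of 10 kinesins and 4 of 5 neuronal intermediate filament genes were higher with 0 lower. Stmn1, which destabilises microtubules, fell to 179, 279 and 272 CPM from 867, 580 and 804 CPM (log2 -1.62, SE 0.23, adjusted p = 3.02e-05), and Tubb5 fell to 121, 132 and 120 CPM from 426, 288 and 293 CPM (log2 -1.43, SE 0.20, adjusted p = 2.59e-05). Of 11 tubulins 3 were higher and 4 lower. The list sum was lower in Bmi1-GFP, at 2670, 2630 and 2440 CPM against 3600, 3000 and 3140 CPM, although most members were higher.

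Related RNA-binding proteins differed in direction. The neural splicing factors Celf2 (15.6, 9.63 and 7.03 against 0.689, 0.579 and 0.699 CPM, log2 4.02), Celf3 (28.8, 18.6 and 11.5 against 1.24, 0.965 and 0.786 CPM, log2 4.31) and Celf6 (6.41, 5.8 and 6.16 against 0, 0.0643 and 0.0437 CPM) were higher, with adjusted p of 3.65e-06, 9.09e-06 and 1.41e-05. Ptbp1, the repressor of neural exons in most tissues, was lower (225, 273 and 192 against 432, 486 and 379 CPM, log2 -0.91, SE 0.18, adjusted p = 0.000612), and its relative Ptbp3 was higher (155, 143 and 170 against 51.4, 54.5 and 59.7 CPM, log2 1.5, SE 0.14, adjusted p = 1.07e-06). Esrp2, an epithelial splicing factor, was lower (24, 34.8 and 23.6 against 64.5, 64.1 and 49.3 CPM, log2 -1.11, adjusted p = 0.00034). Rest, which represses neural genes elsewhere, was lower too (24, 29.6 and 30.7 against 41, 52.1 and 47.9 CPM, log2 -0.74, adjusted p = 0.00145) and was chosen after its values were seen. The lower calls of this list numbered 3 without Bmi1-GFP replicate 3 or Lgr5-GFP-Cre replicate 1.

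Axon guidance genes (62 listed, 45 tested) had 19 higher and 6 lower with a median of 0.97. Of 7 ephrins, ligands of the Eph receptors, 1 was higher and 2 lower. Efnb2, a transmembrane ephrin, was at 39, 32.2 and 37.2 CPM against 4.41, 3.15 and 4.72 CPM (log2 3.13, SE 0.32, adjusted p = 1.45e-06). The membrane-anchored ephrins Efna4 (12.5, 12.7 and 13.7 against 75.8, 67 and 69 CPM, log2 -2.45, SE 0.24, adjusted p = 1.35e-06) and Efna3 (2.88, 4.92 and 4.72 against 24.8, 17.4 and 15.5 CPM, log2 -2.20, SE 0.32, adjusted p = 3.03e-05) fell. Replicates lay close together for all 3 and groups did not overlap. Of 13 semaphorins 4 were higher and 2 lower, and the higher ones included Sema4g (77.2, 52.3 and 65.3 against 13.4, 18.9 and 17.9 CPM, log2 1.96, adjusted p = 1.48e-06) and Sema6d (21.3, 19.8 and 20.6 against 7.1, 4.5 and 4.11 CPM, log2 1.98, adjusted p = 2.11e-06), and of 10 plexins and neuropilins, their receptors, 6 were higher and 0 lower.

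In the neurotrophic list (24 listed, 16 tested; 5 higher, 1 lower, median 1.62) both receptors and a ligand were called. The receptor kinase Ret was higher (log2 4.98, SE 0.85, adjusted p = 0.000137), and so was its co-receptor Gfra3 (57.4, 60.6 and 40.9 against 12.5, 8.11 and 9.39 CPM, log2 2.40, SE 0.44, adjusted p = 0.000279). Neurturin (Nrtn), a ligand that signals through Ret, fell to 7.82, 9.27 and 6.69 CPM from 105, 78 and 65.9 CPM (log2 -3.39, SE 0.33, adjusted p = 1.04e-06). No library crossed between groups in the 3 genes.

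Signalling pathways of the crypt were mixed. Wnt genes (53 listed, 47 tested) had 8 higher and 19 lower with a median of -0.57. Feedback inhibitors that Wnt signalling induces were among the lower genes: Nkd1 was at 2.47, 2.95 and 2.32 CPM against 21.2, 25.3 and 21.7 CPM (log2 -3.14, SE 0.35, adjusted p = 3.14e-06), and the secreted antagonist Sfrp5 at 22.7, 23.9 and 18.7 CPM against 202, 159 and 147 CPM (log2 -2.96, SE 0.30, adjusted p = 1.35e-06). Myc, a target gene that drives growth, fell to 64.2, 117 and 84.3 CPM from 428, 380 and 336 CPM (log2 -2.11, SE 0.27, adjusted p = 1.08e-05). Of 9 Frizzled receptors 3 were higher and 3 lower. The co-receptor Lrp6 (39.2, 29.2 and 41.6 against 11.8, 21.6 and 21.1 CPM, adjusted p = 0.000624) and Apc, of the complex that degrades beta-catenin (51.3, 52.9 and 45.7 against 15.6, 25.1 and 23.1 CPM, adjusted p = 5.78e-05), were higher, and Ctnnb1, beta-catenin itself, was not called (342, 376 and 397 against 365, 461 and 409 CPM, adjusted p = 0.415). Higher calls numbered 5 without Bmi1-GFP or Lgr5-GFP-Cre replicate 1.

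The bone morphogenetic protein (BMP) and TGF-beta list (44 listed, 37 tested) had 12 higher and 6 lower with a median of 0.37. These shares were 32.4% and 16.2%, against 27.9% and 22.5% of all genes tested. Both receptors and ligands were among the called genes. Bmpr1a (63.1, 66.1 and 73.2 against 32.9, 31.3 and 33.5 CPM, log2 1.05, adjusted p = 5.65e-05) and Bmpr2 (15.2, 11.4 and 14.9 against 4.13, 3.73 and 5.9 CPM, log2 1.58, adjusted p = 6.34e-05) encode receptors of types I and II and were higher, as was the target gene Id2 (200, 146 and 158 against 74.8, 41.2 and 64 CPM, log2 1.48, adjusted p = 3.47e-05). Bambi, a decoy receptor, was lower (27.8, 28.2 and 24.5 against 44.1, 72.4 and 69.9 CPM, log2 -1.21, adjusted p = 0.000132). The ligand Bmp2 was higher (23.4, 16 and 14.9 against 4.27, 8.62 and 4.76 CPM, log2 1.62) and the ligand Bmp7 lower (9.76, 8.65 and 6.34 against 32.2, 39.7 and 36.8 CPM, log2 -2.14), at adjusted p of 0.00194 and 8.77e-06. Id3, another target gene, was not called (207, 174 and 199 against 189, 151 and 157 CPM, adjusted p = 0.399). Lower calls fell to 3 without Bmi1-GFP replicate 3.

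Notch genes (40 listed, 38 tested) had 12 higher and 7 lower with a median of 0.34, shares (31.6% and 18.4%) near the background. Their sum was nonetheless lower in Bmi1-GFP, at 968, 1050 and 972 CPM against 1280, 1360 and 1260 CPM. The transcriptional repressor Hes6 (76.6, 80.1 and 51.7 against 255, 209 and 201 CPM, log2 -1.67, adjusted p = 4.94e-05) and the receptor-modifying glycosyltransferase Lfng (12.3, 8.44 and 6.99 against 35.8, 25 and 23.6 CPM, log2 -1.61, adjusted p = 0.000113) were lower. The ubiquitin ligase genes Dtx1 (18.9, 16 and 9.57 against 1.17, 0.45 and 0.262 CPM, log2 4.60, adjusted p = 0.000123) and Neurl1a (9.81, 10.7 and 5.68 against 0, 0.257 and 0.48 CPM, log2 4.99, adjusted p = 0.000112) were higher. Higher calls numbered 7 without Lgr5-GFP-Cre replicate 1. Hedgehog genes (17 listed, 11 tested; 2 higher, 1 lower, median 0.05) held 1 clear contrast: Smo, the signal transducer, was lower (8.35, 14.2 and 11.1 against 40.7, 66.1 and 45.4 CPM, log2 -2.18, SE 0.28, adjusted p = 1.08e-05), and Disp2, a relative of the ligand exporter, was higher (32.2, 39.5 and 21.7 against 0.276, 0.257 and 0.873 CPM, log2 5.94, SE 0.45, adjusted p = 1.31e-07).

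The Hippo list (23 listed, 21 tested) had 5 higher and 6 lower with a median of -0.04. These shares (23.8% and 28.6%) were near those of all genes tested (27.9% and 22.5%), and the 4 members below do not describe the list. Its growth-promoting co-activators were lower, Yap1 at 18.2, 21.3 and 18.4 against 38.8, 33.4 and 26.1 CPM (log2 -0.76, SE 0.14, adjusted p = 0.000342) and Wwtr1 at 1.53, 3.57 and 3.28 against 6.75, 16 and 13.2 CPM (log2 -2.10, adjusted p = 0.00645). The kinases that restrain them were higher, Lats1 at 32.1, 30.6 and 34.1 against 13.7, 13.6 and 17.4 CPM (log2 1.11, adjusted p = 5.44e-05) and Lats2 at 14.8, 7.25 and 4.54 against 0.896, 0.708 and 0.655 CPM (log2 3.56, adjusted p = 0.00016). None of these 4 genes overlapped between groups.

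Receptor tyrosine kinases, their ligands and their feedback genes (50 listed, 45 tested) had 18 higher and 8 lower with a median of 0.66. Igf2r, which clears insulin-like growth factor 2, was higher (54, 47.6 and 50.7 against 10.8, 16.5 and 17.8 CPM, log2 1.75, adjusted p = 2.27e-06), as were the adaptor Irs2 (140, 109 and 92.3 against 21.4, 59.8 and 34.4 CPM, log2 1.56, adjusted p = 0.000178) and the ERK phosphatase Dusp5 (89.9, 60.8 and 52.3 against 14.6, 22.6 and 17.9 CPM, log2 1.88, adjusted p = 0.000123). Pdgfa, a platelet-derived growth factor, was lower (25.3, 27.1 and 25.5 against 77.7, 102 and 98 CPM, log2 -1.83, SE 0.17, adjusted p = 7.6e-07). Groups did not overlap in the 4 genes.

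The growth machinery formed the other side of the comparison. All 35 DNA replication genes listed were tested, and 33 were lower and 0 higher in Bmi1-GFP, with a median log2 fold change of -1.21. Summed over the list they stood at 1390, 1640 and 1470 CPM against 3770, 3420 and 3400 CPM, so the groups did not overlap. The range of fold changes in this list was narrow, as the plot of member fold changes shows. Genes called lower in it spanned a median of 15.3 kb and the 2 not called 189 kb, and the part of gene span in the result was not tested.

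Mcm5, a subunit of the replicative helicase, was at 60.4, 90.4 and 66.7 CPM against 241, 238 and 201 CPM (log2 -1.64, SE 0.21, adjusted p = 1.02e-05). Mcm2, of the same ring, was at 46.6, 81.9 and 55.9 CPM against 199, 222 and 185 CPM (log2 -1.72, SE 0.21, adjusted p = 7.28e-06). Rfc4, of the clamp loader, was at 34.1, 22.8 and 19.9 CPM against 105, 62.8 and 87.5 CPM, and Pola2, of the primase complex, at 35, 34.5 and 30.1 CPM against 84.8, 105 and 93.8 CPM (adjusted p = 1.73e-05 and 3.21e-06). No library crossed between groups in any of the 4. Bmi1-GFP replicate 2 was the highest of its group for both Mcm genes.

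Mitosis genes fell less uniformly. Of 33 listed and tested, 19 were lower and 1 higher, with a median of -0.64. Cdc20, the activator of the anaphase-promoting complex, was at 104, 110 and 107 CPM against 258, 274 and 251 CPM (log2 -1.29, SE 0.19, adjusted p = 4.18e-05). Cdk1, the kinase that starts mitosis, was at 59.1, 68 and 73.2 CPM against 194, 114 and 147 CPM (log2 -1.18, SE 0.22, adjusted p = 0.000287), and Plk1 fell as well (66.4, 70.1 and 52 against 134, 166 and 139 CPM, adjusted p = 0.000263). The member called higher was Mki67, which encodes the proliferation antigen Ki-67, at 141, 156 and 162 CPM against 92.7, 104 and 97.1 CPM (log2 0.64, SE 0.17, adjusted p = 0.00489). Top2a, the topoisomerase that untangles mitotic chromosomes, was not called, at 135, 167 and 152 CPM against 110, 124 and 127 CPM (log2 0.33, SE 0.18, adjusted p = 0.138), although its Bmi1-GFP libraries were all above. Genes called lower spanned a median of 10.4 kb and those not called 37.7 kb, and 2 members were called higher with DESeq2's size factors or Wald test.

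Upstream sequences of 3 of these genes are shown, since 1 fell with replication, 1 belongs to the mitotic ubiquitin machinery and Mki67 moved against the list. Each is the 250 bases before a RefSeq transcript start in GRCm38.p6, 5′ to 3′ on the gene's strand: Mcm5 at chr8:75109259-75109508 (plus), Ube2c at chr2:164769679-164769928 (plus) and Mki67 at chr7:135716380-135716629 (minus). The start used lies 41 bases inside the outermost RefSeq start of Mcm5 and 71 bases inside that of Mki67. Capitals mark E2F-type letters (TTTCCCGC or TTTGGCGC) in Mcm5, and CCAAT or the cell cycle homology letters TTTGAA in Ube2c and Mki67, all searched on both strands.
Mcm5: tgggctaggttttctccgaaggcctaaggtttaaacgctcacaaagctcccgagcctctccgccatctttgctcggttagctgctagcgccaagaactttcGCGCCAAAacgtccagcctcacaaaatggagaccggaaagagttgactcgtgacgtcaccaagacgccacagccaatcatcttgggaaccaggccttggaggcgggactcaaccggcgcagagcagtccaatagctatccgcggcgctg
Ube2c: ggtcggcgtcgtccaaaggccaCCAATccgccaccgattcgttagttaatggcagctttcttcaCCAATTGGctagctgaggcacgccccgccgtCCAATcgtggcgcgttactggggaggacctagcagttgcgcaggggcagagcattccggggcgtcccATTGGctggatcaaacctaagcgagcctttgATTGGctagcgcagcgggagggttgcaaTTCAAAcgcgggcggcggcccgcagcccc
Mki67: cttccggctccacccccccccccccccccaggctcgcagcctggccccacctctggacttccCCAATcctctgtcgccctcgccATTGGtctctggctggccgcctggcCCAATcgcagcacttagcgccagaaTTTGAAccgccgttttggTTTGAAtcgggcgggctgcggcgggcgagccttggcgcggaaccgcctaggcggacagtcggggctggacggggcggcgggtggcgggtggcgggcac
Ube2c, a ubiquitin-conjugating enzyme of mitotic exit chosen after its values were seen, was at 102, 120 and 122 CPM against 347, 172 and 255 CPM (log2 -1.17, adjusted p = 0.000568). Mcm5 held 1 E2F-type match, Ube2c 7 matches and Mki67 5 matches of CCAAT or TTTGAA, with an overlapping pair in Ube2c. E2F-type letters were found in 6 of 28 replication promoters (21.4%) against 2.38% of all 11108 promoters, 1.59% of those of genes called higher and 3.38% of those called lower. CCAAT was found in 21 of 28 mitosis promoters (75.0%) against 35.9% of all, and TTTGAA in 9 of 28 (32.1%) against 10.7%. Both kinds of letters thus stand before Mki67, which was higher, and before Ube2c. A match is a description of the letters and not a binding site.

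Regulators of the cycle (33 listed, 32 tested) had 9 higher and 11 lower with a median of -0.04. Cdk4, the kinase of early G1, fell to 187, 227 and 209 CPM from 813, 596 and 660 CPM (log2 -1.73, SE 0.18, adjusted p = 2.06e-06), with its relative Cdk6 (10, 9.27 and 7.21 against 46.2, 27.1 and 32.6 CPM, log2 -2.0, adjusted p = 7.83e-06) and E2f1, the activator of replication genes (14.5, 11.9 and 10.7 against 44.9, 48.9 and 38.2 CPM, log2 -1.83, adjusted p = 3.19e-05). The retinoblastoma gene Rb1, which restrains E2F factors, was higher at 59.9, 49.9 and 54.3 CPM against 11.6, 12.6 and 14.1 CPM (log2 2.10, SE 0.24, adjusted p = 4.34e-06), as was the Cdk4 inhibitor Cdkn2b at 113, 87.4 and 98.7 CPM against 14.7, 26.4 and 24.2 CPM (log2 2.19, SE 0.26, adjusted p = 6.23e-06). Groups did not overlap for these 5 genes. Btg1, an antiproliferative gene, was not called (262, 224 and 217 against 175, 196 and 212 CPM, adjusted p = 0.146).

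**Figure D4:**
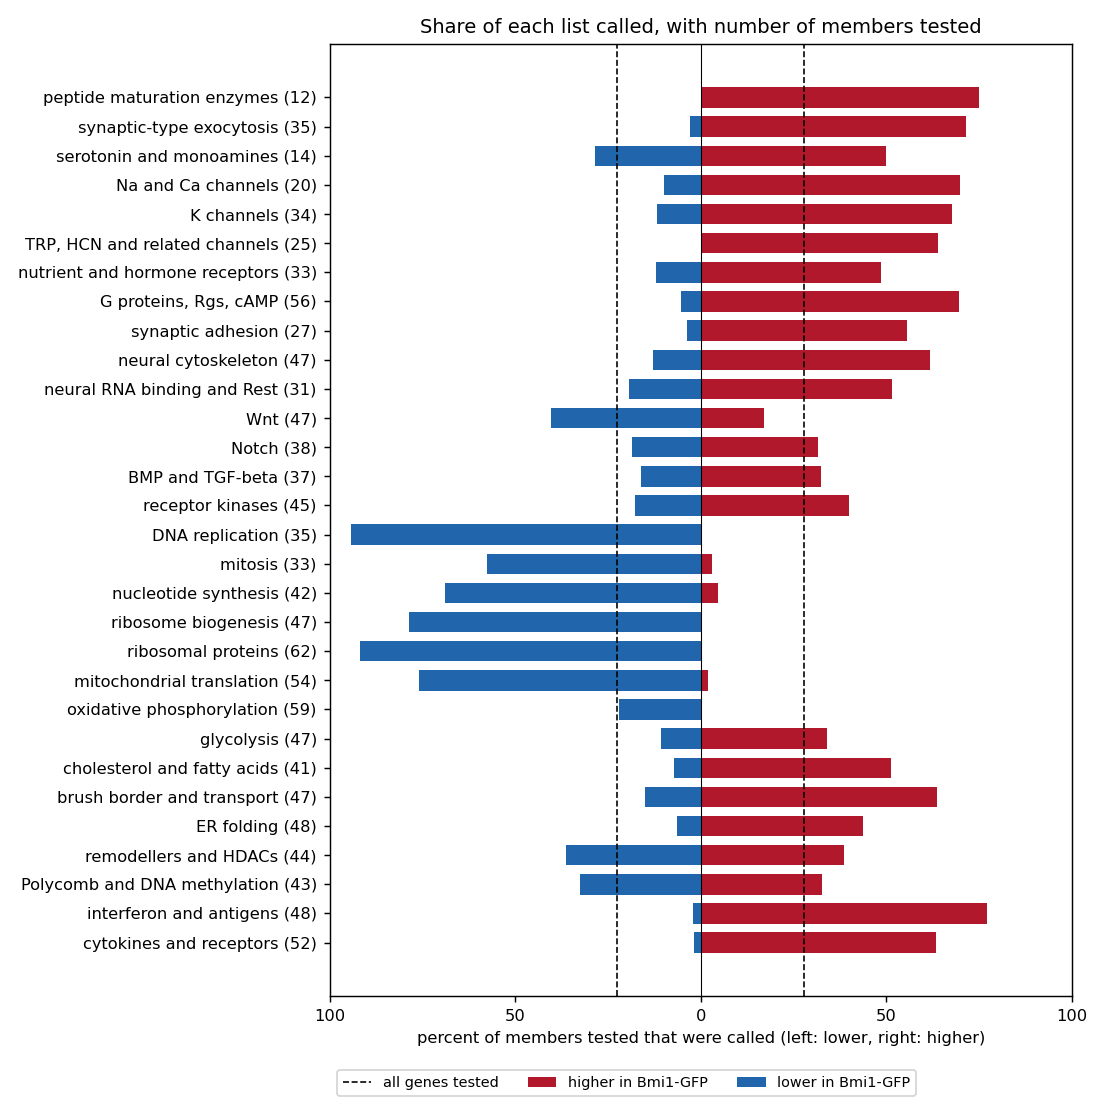
Percent of tested members called lower (blue, left) and higher (red, right) in 30 gene lists, with the number tested in brackets and dashed lines at the share of all genes tested (27.9% higher, 22.5% lower). Replication (33 of 35 lower) and ribosomal proteins (57 of 62 lower) extend farthest to the left. Oxidative phosphorylation lies at the background only in its lower share (13 of 59), with 0 members higher.

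Nucleotide and one-carbon genes (42 listed and tested) had 2 higher and 29 lower with a median of -0.86. The folate carrier Slc19a1 was at 35.2, 50.9 and 32.6 CPM against 147, 150 and 123 CPM (log2 -1.82, SE 0.20, adjusted p = 3.38e-06). Shmt1, which moves one-carbon units from serine, was at 82.5, 109 and 77.3 CPM against 288, 291 and 262 CPM (log2 -1.64, SE 0.17, adjusted p = 1.66e-06). Paics and Gart, enzymes of purine synthesis, were at 48.8, 66.2 and 56.1 against 163, 164 and 173 CPM and at 56.1, 82.2 and 64.9 against 188, 176 and 159 CPM (adjusted p = 2.7e-06 and 7.91e-06). The groups were far apart in all 4. Aldh1l1, which removes one-carbon units by oxidation, was higher (106, 76.7 and 78.5 against 39.6, 64 and 45.6 CPM, log2 0.81, adjusted p = 0.0082, and 0.0535 without Bmi1-GFP replicate 1), and 1 member was higher in the 6-library fit and without Bmi1-GFP replicate 1.

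Ribosome production was lower at several levels. Ribosome biogenesis (47 listed and tested) had 0 higher and 37 lower with a median of -0.84, and Rrp9, a protein of the small nucleolar complex that processes ribosomal RNA, was at 21.3, 27.4 and 23.3 CPM against 122, 75.1 and 70.4 CPM (log2 -1.90, SE 0.22, adjusted p = 4.45e-06). Polr1c, shared by RNA polymerases I and III, was at 27.1, 28.4 and 32.6 CPM against 98.9, 67.2 and 70.6 CPM (log2 -1.42, SE 0.16, adjusted p = 3.88e-06). Cytosolic ribosomal proteins (64 listed, 62 tested) had 0 higher and 57 lower with a median of -1.01, in 33 of 35 Rpl and 24 of 27 Rps genes. Rps19 was at 360, 475 and 429 CPM against 1676, 635 and 1102 CPM (log2 -1.43, SE 0.26, adjusted p = 0.000227), and Rplp0, of the ribosomal stalk, at 924, 999 and 1003 CPM against 3152, 1754 and 2152 CPM (log2 -1.27, SE 0.21, adjusted p = 0.000127).

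Lgr5-GFP-Cre replicate 1 was the highest library and replicate 2 the lowest of its group for each of these ribosomal proteins. Summed over the list the group stood at 60100, 24300 and 38600 CPM against 17800, 20300 and 19800 CPM in Bmi1-GFP. Without Lgr5-GFP-Cre replicate 1 only 30 ribosomal protein genes were called lower. Ribosomal proteins called lower spanned a median of 3.18 kb, and near-identical processed copies of these genes elsewhere in the genome make single values uncertain.

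Translation factors and cytosolic tRNA synthetases (38 listed, 37 tested) had 3 higher and 19 lower with a median of -0.42. Farsa, a subunit of the phenylalanine synthetase, fell to 52.8, 56.3 and 38.5 CPM from 135, 97.5 and 97 CPM (log2 -1.16, SE 0.18, adjusted p = 4.93e-05). Eif4g3, a scaffold of initiation, was higher (61.3, 42.7 and 37.4 against 15.3, 21.6 and 17.2 CPM, log2 1.38, SE 0.21, adjusted p = 4.69e-05), while its relative Eif4g1 was not called (275, 231 and 231 against 183, 244 and 207 CPM, adjusted p = 0.196). DNA repair genes (51 listed and tested) had 2 higher and 21 lower with a median of -0.59. Apex1, the main nuclease for abasic sites, was at 10.9, 13.8 and 12.6 CPM against 46.9, 46.1 and 39.5 CPM (log2 -1.83, adjusted p = 1.72e-05), Mgmt, which removes alkyl groups from guanine, at 2.47, 2.95 and 2.18 against 15.6, 11.8 and 14.8 CPM (log2 -2.47, adjusted p = 4.27e-05), and the helicase Wrn was higher (21.9, 24.6 and 18.4 against 10.2, 12 and 11.9 CPM, log2 0.92, adjusted p = 0.00407). Higher calls in this list numbered 1 without Lgr5-GFP-Cre replicate 1 or 2.

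Mitochondrial translation (54 listed and tested) had 1 higher and 41 lower with a median of -0.70, including 34 of 40 mitochondrial ribosomal proteins. Mrps30 was at 57.6, 71.8 and 73.5 CPM against 185, 121 and 134 CPM (log2 -1.12, SE 0.17, adjusted p = 5.86e-05), and the tyrosine synthetase Yars2 at 41.5, 38.6 and 34.1 against 106, 75 and 78.6 CPM (log2 -1.19, SE 0.17, adjusted p = 2.57e-05). The member called higher, Lars2, is uncertain because reads of ribosomal RNA can align within it, and 2 members were higher with DESeq2's settings or without Lgr5-GFP-Cre replicate 3. Nuclear-encoded subunits of oxidative phosphorylation (59 listed and tested) had 0 higher and 13 lower with a median of -0.30. The share called lower was close to the background of 22.5%, while 27.9% of all genes tested were called higher. Atp5a1, the catalytic-head subunit of ATP synthase, was not called (log2 -0.28, SE 0.14, adjusted p = 0.114, and 0.045 by DESeq2's Wald test). Lower calls ranged from 3 in the fit with a replicate block to 41 without Lgr5-GFP-Cre replicate 2, and numbered 5 in the 6-library fit. They numbered 6 without Bmi1-GFP replicate 1, 5 without Bmi1-GFP replicate 2 and 6 without Lgr5-GFP-Cre replicate 1. The summed subunits overlapped between groups, at 26800, 25800 and 31600 CPM against 46000, 25400 and 34800 CPM.

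Glucose metabolism (48 listed, 47 tested) had 16 higher and 5 lower with a median of 0.31. Hexokinase 1 (Hk1) was at 27.4, 24.5 and 14.2 CPM against 2.07, 3.54 and 2.75 CPM (log2 2.98, SE 0.41, adjusted p = 1.95e-05), and the phosphofructokinase Pfkp at 245, 235 and 261 CPM against 61.9, 71 and 64.7 CPM (log2 1.91, SE 0.26, adjusted p = 1.96e-05). Hk1 was lowest in Bmi1-GFP replicate 3, as was the enteroendocrine sum, while Pfkp was highest there. Ldha, which makes lactate, was not called, and Pck2, the mitochondrial enzyme that makes phosphoenolpyruvate, was lower (36.6, 49.5 and 35.7 against 134, 132 and 118 CPM, log2 -1.66, adjusted p = 0.000264). Lower calls numbered 3 without Bmi1-GFP replicate 1 or 2.

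Sterol and fatty acid synthesis (41 listed and tested) had 21 higher and 3 lower with a median of 0.45. HMG-CoA synthase (Hmgcs1) was at 217, 177 and 204 CPM against 54.3, 64 and 69.1 CPM (log2 1.67, SE 0.18, adjusted p = 2.02e-06). Acetyl-CoA carboxylase (Acaca) was at 16.7, 17 and 19.6 CPM against 4.41, 5.85 and 3.8 CPM (log2 1.93, SE 0.18, adjusted p = 8.12e-07). Replicates were tight in both groups, and the part of the marked cell types in these genes was not tested. The desaturases of polyunsaturated fatty acids were lower, Fads2 at 108, 157 and 81.2 CPM against 301, 487 and 389 CPM (log2 -1.77, SE 0.27, adjusted p = 5.66e-05) and Fads1 at 75.4, 95.6 and 82.6 CPM against 144, 214 and 204 CPM (log2 -1.15, SE 0.20, adjusted p = 0.000184). The elongase Elovl6 was higher (120, 80.8 and 113 against 24.8, 22.1 and 20.6 CPM, log2 2.22, adjusted p = 3.79e-06).

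The sequence upstream of Hmgcs1 is shown because it was the promoter of this list that held the sterol regulatory element letters TCACNCCAC. It is the 250 bases before the RefSeq start in GRCm38.p6 (chr13:119690101-119690350, plus strand), 5′ to 3′, with the match in capitals, both strands searched.
Hmgcs1: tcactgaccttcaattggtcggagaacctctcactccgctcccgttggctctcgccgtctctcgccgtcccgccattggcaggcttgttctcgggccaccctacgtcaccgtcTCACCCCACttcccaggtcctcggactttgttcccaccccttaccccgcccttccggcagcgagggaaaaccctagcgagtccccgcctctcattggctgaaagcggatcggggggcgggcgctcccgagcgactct
The match begins 137 bases before the start. These letters were in 1.03% of all 11108 promoters, in 1.46% of those called higher and in 0.717% of those called lower, so their absence from the other promoters of the list says only that the letters are not in the window.

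The ketone and fatty acid oxidation list (40 listed, 39 tested) had 13 higher and 5 lower with a median of 0.26. The co-activator Ppargc1a, which promotes oxidative metabolism, was higher (25.4, 23.9 and 36.9 against 6.96, 11.3 and 11 CPM, log2 1.55, SE 0.29, adjusted p = 0.000271). Bmi1-GFP replicate 3 was the highest library, as it was for the enterocyte marker sum (11900, 7520 and 20500 CPM). Higher calls numbered 8 without Bmi1-GFP replicate 3 or Lgr5-GFP-Cre replicate 1.

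Brush border and transport genes (47 listed and tested) had 30 higher and 7 lower with a median of 1.40, and summed to 11000, 7880 and 17400 CPM against 4390, 6820 and 6510 CPM. Enterocyte markers, which include Apoa1 named below, moved with them in the same libraries. The part of enterocytes in the result was not tested. The phosphate carrier Slc34a2 was at 24.3, 17.5 and 28 CPM against 0.964, 1.35 and 1.79 CPM (log2 4.05, SE 0.47, adjusted p = 4.59e-06). The sodium-proton exchanger Slc9a3 was at 21, 22.3 and 19.6 CPM against 1.86, 1.61 and 1.83 CPM (log2 3.56, SE 0.44, adjusted p = 8.46e-06). The anion exchanger Slc26a3 (85.1, 63.9 and 111 against 13.8, 21.4 and 22 CPM, log2 2.18, adjusted p = 1.38e-05) and the membrane carbonic anhydrase Car4 (350, 258 and 266 against 36.6, 57.5 and 56.1 CPM, log2 2.54, adjusted p = 8.58e-06) were higher too, and all 4 separated the groups. The water channel Aqp1 fell to 40.3, 41.2 and 54 CPM from 202, 265 and 244 CPM (log2 -2.39, SE 0.34, adjusted p = 2.54e-05), and Slc12a2, which loads crypt cells with chloride, fell to 260, 348 and 294 CPM from 733, 857 and 848 CPM (log2 -1.43, SE 0.21, adjusted p = 4.06e-05). The lipoprotein gene Apoa1 spread widely and was not called (2315, 1229 and 3776 against 1040, 1220 and 1398 CPM, adjusted p = 0.103, and 0.0452 without Bmi1-GFP replicate 2).

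Metal handling (32 listed, 29 tested) had 12 higher and 4 lower with a median of 0.30. Hephaestin (Heph), the ferroxidase of iron export, was at 77.2, 74.9 and 103 CPM against 23.8, 26.9 and 25.1 CPM (log2 1.75, SE 0.33, adjusted p = 0.000301), and the transferrin receptor Tfrc at 196, 236 and 207 CPM against 91.3, 103 and 118 CPM (log2 1.03, SE 0.22, adjusted p = 0.000803). The manganese exporter Slc30a10 was higher (13.6, 4.76 and 10.7 against 1.24, 1.35 and 1.22 CPM, log2 2.92, adjusted p = 0.00115) and the zinc importer Slc39a5 lower (185, 160 and 128 against 245, 311 and 236 CPM, log2 -0.74, adjusted p = 0.00313). Lower calls numbered 2 without Bmi1-GFP replicate 3 and 1 without Bmi1-GFP replicate 2.

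Lysosome and autophagy genes (58 listed, 54 tested) were evenly split, with 13 higher, 13 lower and a median of -0.09. Both shares (24.1%) were near those of all genes tested (27.9% higher and 22.5% lower). Of 17 subunits and accessory proteins of the vacuolar proton pump (V-ATPase), which acidifies granules and lysosomes, 8 were higher and 0 lower, and of 16 lysosomal hydrolases 4 were higher and 6 lower. Atp6v0a1, the a1 membrane subunit, was at 58.9, 55.1 and 62.3 CPM against 9.99, 16.3 and 15.6 CPM (log2 2.07, SE 0.19, adjusted p = 7.31e-07), and Atp6v0a2 at 193, 192 and 195 CPM against 75.8, 78.4 and 84.4 CPM (log2 1.28, SE 0.14, adjusted p = 3.38e-06). Both were nearly constant across the Bmi1-GFP libraries. Glb1, the lysosomal beta-galactosidase, was lower (30.3, 37.6 and 35.6 against 63.2, 73.3 and 65.9 CPM, log2 -0.97, SE 0.14, adjusted p = 3.52e-05), and Lamp1, a structural membrane protein of lysosomes, was not called (422, 441 and 519 against 472, 513 and 502 CPM, adjusted p = 0.526).

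Genes of folding in the endoplasmic reticulum (48 listed and tested) had 21 higher and 3 lower with a median of 0.27. The stress sensors Atf6 (54.9, 78.2 and 41.2 against 13.9, 21.4 and 16.3 CPM, log2 1.76, SE 0.22, adjusted p = 9.09e-06) and Ern1 (9.34, 11.4 and 10.2 against 3.79, 5.85 and 3.14 CPM, log2 1.28, SE 0.23, adjusted p = 0.000199), the chaperone Canx (529, 530 and 569 against 294, 242 and 304 CPM, log2 0.95, adjusted p = 2.57e-05) and the oxidase Ero1l (58.2, 63.4 and 78.5 against 29.8, 21.7 and 29 CPM, log2 1.31, adjusted p = 3.47e-05) were higher. Atf6b, the close relative of Atf6, was lower (54, 58.5 and 53.7 against 79.5, 107 and 83.2 CPM, log2 -0.70, adjusted p = 0.00191). Lower calls numbered 7 without Lgr5-GFP-Cre replicate 2. CCAAT letters were found in 27 of 37 promoters of this list (73.0%), against 35.9% of all.

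Adhesion and matrix genes (50 listed, 44 tested) had 21 higher and 5 lower with a median of 0.73. Their sum was nonetheless lower in Bmi1-GFP, at 1470, 1610 and 1450 CPM against 1890, 2400 and 2130 CPM. Integrins, the matrix and cell receptors, were higher in 13 of 18 cases with 0 lower. The integrins of lowest adjusted p are those of lymphocytes: Itga4 was at 14.9, 11 and 8.08 CPM against 0, 0 and 0.131 CPM, Itgb2 at 29.3, 19.1 and 17 CPM against 0, 0.129 and 0.349 CPM, and Itgae at 92.4, 59.8 and 38.8 CPM against 0.276, 5.53 and 2.88 CPM (adjusted p = 3.57e-06, 4.52e-06 and 9.04e-05). T cell markers, which include Itgae itself, summed to 3110, 1760 and 1360 CPM in the same libraries. The sum was highest in replicate 1 as were these 3 genes, and the part of T cells was not tested. Itgav, an integrin of epithelia, was higher by less (11.8, 15.4 and 17.8 against 5.92, 4.12 and 3.58 CPM, log2 1.73, SE 0.28, adjusted p = 8.77e-05). Sdc1, a heparan sulfate proteoglycan, was lower (101, 117 and 86 against 285, 293 and 246 CPM, log2 -1.44, SE 0.16, adjusted p = 4.09e-06).

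Junction genes (50 listed, 39 tested) had 12 higher and 9 lower with a median of 0.17, shares (30.8% and 23.1%) near the background. The desmosome genes Dsp (146, 114 and 149 against 46.8, 77.9 and 57.2 CPM, log2 1.17, adjusted p = 0.000163) and Dsg2 (169, 179 and 177 against 65.4, 82 and 85 CPM, log2 1.17, adjusted p = 0.000265) and the tight junction scaffold Tjp1 (41.3, 41.4 and 41.4 against 15, 13.7 and 12.4 CPM, log2 1.59, adjusted p = 0.000123) were higher. The gap junction gene Gjb1 was lower (93.2, 67.2 and 50.9 against 171, 172 and 150 CPM, log2 -1.22, adjusted p = 0.000472), and of 10 claudins 3 were higher and 5 lower. Epcam, the general epithelial adhesion molecule, was not called (1620, 1532 and 1902 against 1940, 1703 and 1886 CPM, adjusted p = 0.469). Lower calls numbered 5 without Bmi1-GFP replicate 2. Keratin and actin genes (45 listed, 44 tested; 19 higher, 4 lower, median 0.51) were led by Krt20, a keratin of differentiated cells, at 506, 511 and 1143 CPM against 74.4, 29.9 and 34.5 CPM (log2 3.96, SE 0.55, adjusted p = 2.35e-05), and Myo7a, a myosin of brush borders and sensory cells (26.1, 24.9 and 36.7 against 1.72, 5.85 and 4.11 CPM, log2 2.90, adjusted p = 2.06e-06). The bundling protein Pls3 was lower (10.5, 14 and 12.4 against 28.9, 48.1 and 45.8 CPM, log2 -1.74, adjusted p = 4.41e-05).

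Homeobox and related transcription factors (70 listed, 47 tested) had 18 higher and 5 lower with a median of 0.61. Their sum was nonetheless lower in Bmi1-GFP, at 1120, 1160 and 935 CPM against 1650, 1640 and 1440 CPM. The endocrine factors Pax6 (16, 14.7 and 10.2 against 0.207, 0.0643 and 0.349 CPM, log2 5.91, SE 0.52, adjusted p = 7.6e-07) and Isl1 (54.7, 50.3 and 26.3 against 2.55, 1.67 and 2.1 CPM, log2 4.38, SE 0.40, adjusted p = 7.6e-07) were higher. Cdx1, a factor of intestinal identity, was lower (349, 325 and 232 against 798, 854 and 649 CPM, log2 -1.34, SE 0.20, adjusted p = 4.01e-05), as was Tgif2, a corepressor of TGF-beta signals (3.11, 3.68 and 2.49 against 18.4, 14.4 and 13.5 CPM, log2 -2.32, adjusted p = 3.92e-05). Of 12 clustered Hox genes 1 was higher and 0 lower.

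In the Sox, Klf and Fox list (49 listed, 43 tested; 9 higher, 11 lower, median -0.01) the counts were near the background. Of 13 Klf genes 5 were higher and 1 lower, of 15 Fox genes 1 higher and 4 lower, and of 8 Sox genes 1 higher and 3 lower. Klf6 was at 358, 268 and 285 CPM against 64.1, 92.5 and 90.8 CPM (log2 1.88, SE 0.24, adjusted p = 1.2e-05). Sox9, a factor of crypt progenitors, was at 125, 166 and 92 CPM against 374, 545 and 425 CPM (log2 -1.81, SE 0.29, adjusted p = 8.91e-05), and Foxa3 at 30.8, 46.1 and 30.1 CPM against 167, 151 and 146 CPM (log2 -2.12, SE 0.33, adjusted p = 6.23e-05). Groups did not overlap in the 3 genes.

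Nuclear receptors (44 listed, 39 tested) had 10 higher and 8 lower with a median of 0.25, shares near the background. Hnf4g, a regulator of enterocyte genes, was at 301, 259 and 464 CPM against 52.5, 65.8 and 82 CPM (log2 2.35, SE 0.29, adjusted p = 7.49e-06) and was highest in Bmi1-GFP replicate 3, as was the enterocyte sum. Nr4a2, an orphan receptor induced by calcium and cyclic AMP, was at 90.3, 67.4 and 62 CPM against 10.6, 17 and 9.22 CPM (log2 2.58, SE 0.33, adjusted p = 1.15e-05). Nr2f6, an orphan receptor of the COUP family, was lower (123, 126 and 106 against 295, 347 and 243 CPM, log2 -1.31, SE 0.16, adjusted p = 9.27e-06), and so was Rxrb, a common dimer partner (61, 65.9 and 40.2 against 119, 154 and 127 CPM, adjusted p = 0.000378).

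Polycomb, DNA methylation and related genes (44 listed, 43 tested) had 14 higher and 14 lower with a median of -0.11. The reporter gene Bmi1 itself was at 22, 23.9 and 27.4 CPM against 18.1, 20.1 and 18.9 CPM (log2 0.36, SE 0.14, adjusted p = 0.0446), a small difference without overlap. The call was lost in the 6-library fit (adjusted p = 0.135), with no filter on low counts (0.117) and without 4 of the 6 libraries in turn (adjusted p = 0.0564 and 0.177 without Bmi1-GFP replicates 2 and 3, and 0.111 and 0.0931 without Lgr5-GFP-Cre replicates 1 and 3). Suz12, a core subunit of Polycomb repressive complex 2, was higher (58.5, 44.9 and 61 against 30.5, 27.3 and 35.3 CPM, log2 0.82, SE 0.14, adjusted p = 0.000195), and so were Rybp, of Polycomb complex 1 (32.7, 28.7 and 30.5 against 17.6, 13.5 and 14.1 CPM, adjusted p = 0.000163), and Tet2, which oxidises methylcytosine (24, 26.1 and 20.9 against 6.61, 9.84 and 7.82 CPM, log2 1.55, adjusted p = 0.00038). The histone chaperone Rbbp4, shared by several complexes, was lower (176, 216 and 203 against 475, 403 and 459 CPM, log2 -1.17, SE 0.15, adjusted p = 8.58e-06), as was Mbd3 of the NuRD complex (75.2, 73.5 and 59.4 against 180, 160 and 142 CPM, log2 -1.21, adjusted p = 2.04e-05). Higher calls numbered 9 in the 6-library fit and 6 without Lgr5-GFP-Cre replicate 3.

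Remodellers and deacetylases (45 listed, 44 tested) had 17 higher and 16 lower with a median of 0.16. Of 9 chromodomain helicase genes 8 were higher and 0 lower (median 1.13), and of 11 histone deacetylases 0 were higher and 6 lower (median -0.65). Chd3, an ATPase of NuRD, was at 56.1, 37.7 and 42.1 CPM against 9.09, 14.4 and 12.2 CPM (log2 1.92, SE 0.26, adjusted p = 2.09e-05), and Bptf, of the nucleosome remodelling factor, at 45, 39.1 and 35.7 CPM against 12.1, 14.8 and 17.2 CPM (log2 1.44, SE 0.15, adjusted p = 2.38e-06). Smarcd2, an accessory subunit of the BAF complex, fell to 130, 168 and 145 CPM from 373, 480 and 387 CPM (log2 -1.49, SE 0.15, adjusted p = 1.61e-06), and Hdac1 was not called (125, 138 and 127 against 152, 159 and 154 CPM, adjusted p = 0.0854). Of 18 genes of the Smarc, Arid, Actl6 and Dpf families 6 were higher and 7 lower. Members called higher spanned a median of 83.2 kb and those called lower 21.9 kb, and in the Polycomb list 55.7 and 23.5 kb; the part of gene span was not tested.

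**Figure D5:**
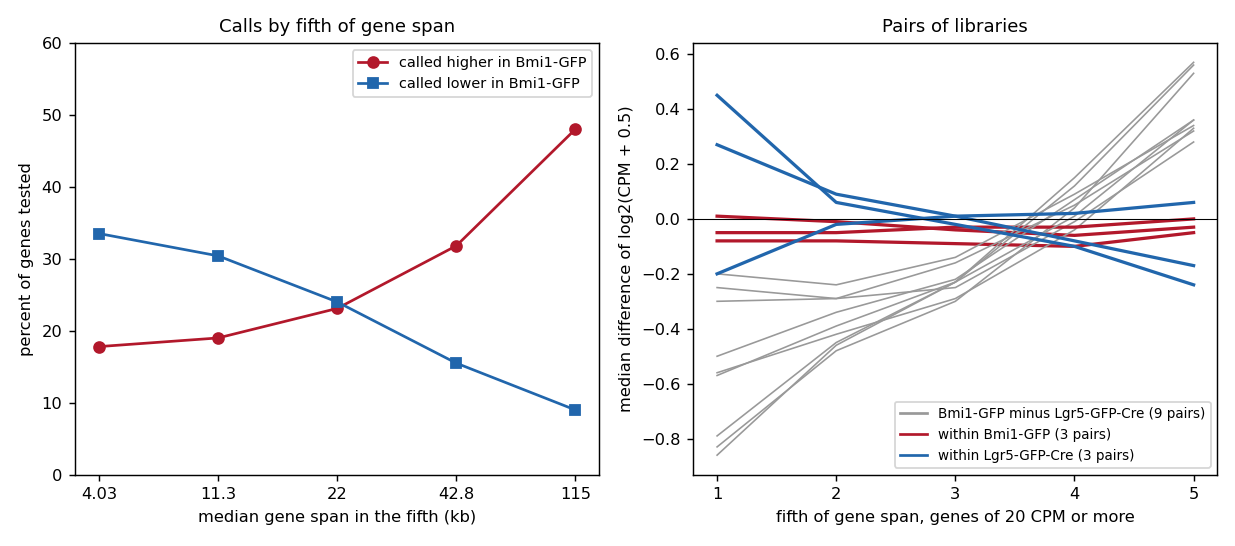
Left, percent of tested genes called higher (red circles) and lower (blue squares) in 5 equal groups of genomic gene span, labelled by their median span in kb. Right, median difference of log2(CPM + 0.5) in each of these groups for pairs of libraries, genes of 20 CPM or more: the 9 pairs between groups rise by 0.53 to 1.42 from the shortest to the longest genes, and pairs within Lgr5-GFP-Cre differ by up to 0.69.

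Span, the distance from a gene's first to its last base in RefSeq with introns included, moved with the direction of change over the whole table. From the shortest to the longest of 5 equal groups, the share called higher was 17.8, 19, 23.1, 31.8 and 48.0%, and the share called lower 33.5, 30.4, 24.0, 15.5 and 9.0%. The median log2 fold change went from -0.32 to 0.68. Among 7232 genes with 20 CPM or more it went from -0.59 to 0.41. Within Bmi1-GFP the pairs of libraries differed by -0.04 to 0.05 between the longest and shortest genes. Within Lgr5-GFP-Cre, replicate 1 differed from replicate 2 by -0.69 and from replicate 3 by -0.44, so this library stood apart in the same property, and the largest difference within a group exceeded the smallest between groups (0.53). Lower members of the ribosomal protein, mitochondrial translation and replication lists had median spans of 3.18, 7.59 and 15.3 kb, and higher members of the sodium and calcium channel list 168 kb. The direction of those lists and gene span cannot be told apart from these counts alone. In the nucleotide list, members called lower (21.6 kb) and members not called (23.9 kb) had similar median spans.

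Imprinted genes and long noncoding RNAs (43 listed, 27 tested) had 13 higher and 3 lower with a median of 1.08. The paternally expressed zinc finger gene Peg3 was at 30.6, 45.5 and 21.2 CPM against 0.207, 0.643 and 0.349 CPM (log2 6.32, SE 0.62, adjusted p = 1.14e-06), and the nucleosome assembly relative Nap1l5 at 6.76, 8.75 and 10.3 CPM against 0.138, 0.0643 and 0.218 CPM (log2 5.82, SE 0.66, adjusted p = 4.67e-06). Neat1, the RNA scaffold of paraspeckles, was at 181, 120 and 101 CPM against 7.92, 18.1 and 15.1 CPM (log2 3.28, SE 0.38, adjusted p = 4.66e-06). All 3 genes separated the groups. Ascl2, an imprinted stem cell factor, was lower (16.7, 26.2 and 18.7 against 263, 185 and 178 CPM, log2 -3.34, SE 0.36, adjusted p = 2.38e-06), and Gas5, a host gene of small nucleolar RNAs, was not called (62.4, 81.5 and 75.9 against 158, 46.8 and 103 CPM, adjusted p = 0.219, and 0.018 without Lgr5-GFP-Cre replicate 2). Lower calls numbered 5 without Lgr5-GFP-Cre replicate 2. Reads of genes that overlap on opposite strands cannot be separated where the strand setting is not given.

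Cell death genes (37 listed, 36 tested) had 13 higher and 5 lower with a median of 0.12. Cflar, which blocks caspase 8, was at 47.7, 42 and 53.1 CPM against 22.9, 21.2 and 21.8 CPM (log2 1.12, SE 0.15, adjusted p = 1.3e-05). The death receptor Fas was higher (17.5, 13.8 and 34.2 against 3.93, 6.82 and 6.64 CPM, log2 1.91, adjusted p = 0.000415), and the Bcl-2 relative Bok was lower (17.9, 20.3 and 17.2 against 50.1, 62 and 57.3 CPM, log2 -1.61, adjusted p = 0.00028). Lower calls numbered 3 without Bmi1-GFP replicate 2.

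Redox and detoxification genes (64 listed, 63 tested) had 19 higher and 13 lower with a median of 0.40. These shares (30.2% and 20.6%) were near those of all genes tested (27.9% and 22.5%). The secreted glutathione peroxidase Gpx3 was at 241, 124 and 82.8 CPM against 1.38, 3.67 and 3.76 CPM (log2 5.64, SE 0.56, adjusted p = 1.28e-06), and the efflux pump Abcb1a at 81.1, 76.2 and 108 CPM against 10.8, 17.4 and 17.7 CPM (log2 2.52, SE 0.40, adjusted p = 6.61e-05). Glutathione transferases were split, 3 of 14 higher and 4 lower, with Gstm2 at 38.3, 25.6 and 35.7 CPM against 129, 86.4 and 109 CPM (log2 -1.70, SE 0.21, adjusted p = 8.79e-06), and 4 of 6 peroxiredoxins were lower. Gstm genes are near-identical copies, so the value of Gstm2 is uncertain. Higher calls numbered 11 without Bmi1-GFP replicate 3. Immediate early and heat shock genes (26 listed and tested; 9 higher, 1 lower, median 0.27) included Fosb (207, 114 and 87.5 against 24.8, 30.4 and 31.7 CPM, log2 2.23, adjusted p = 5.55e-05) and Junb (1077, 833 and 768 against 253, 574 and 379 CPM, log2 1.15, adjusted p = 0.00248), while Fos was not called (log2 0.37, SE 0.36, adjusted p = 0.406). Hspa8, a constitutive heat shock protein, was the lower member (1149, 1537 and 1865 against 3927, 1861 and 2096 CPM, adjusted p = 0.0203), its groups overlapped, and the call was lost in the 6-library fit and without Bmi1-GFP replicate 1 or 2 or Lgr5-GFP-Cre replicate 1.

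Immune genes were higher together. The list of interferon response and antigen presentation (48 listed and tested) had 37 higher and 1 lower with a median of 1.8, and summed to 11000, 9490 and 12000 CPM against 4870, 3810 and 4270 CPM. The RNA sensor Ifih1 was at 34.6, 32.7 and 42.4 CPM against 11.8, 7.59 and 9.04 CPM (log2 1.95, SE 0.20, adjusted p = 1.54e-06). Irf7, the amplifier of the interferon response, was at 119, 89.1 and 71 CPM against 20.9, 27.9 and 20.6 CPM (log2 2.00, SE 0.27, adjusted p = 1.8e-05), and the deconjugase Usp18 at 26, 25.9 and 19.6 CPM against 2.41, 0.901 and 2.45 CPM (log2 3.62, SE 0.43, adjusted p = 6.15e-06). Groups did not overlap in these genes. Irf3, the constitutive factor, was lower (53.1, 55.2 and 56.7 against 108, 92.6 and 74.6 CPM, log2 -0.74, SE 0.15, adjusted p = 0.000776). Of 7 class II antigen presentation genes 6 were higher. H2-Ab1, chosen after its values were seen, was at 909, 711 and 966 CPM against 123, 142 and 139 CPM (log2 2.68, adjusted p = 0.0121). T cell markers (1360 to 3110 CPM summed against 38.4 to 66 CPM) and B and plasma cell markers were higher in the same libraries. The sum of myeloid markers overlapped between groups (50 to 54 against 29.5 to 52.4 CPM), with 4 of 13 tested called higher and 1 lower. The part of lymphocytes and myeloid cells in the list was not tested.

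The upstream sequence of Ifit1, an interferon-induced RNA-binding protein, is shown as an example of the interferon-stimulated response element letters in this list (GAAA, any 2 bases, GAAA). It is the 250 bases before the RefSeq start in GRCm38.p6 (chr19:34640639-34640888, plus strand), 5′ to 3′, and the capitals mark matches, both strands searched.
Ifit1: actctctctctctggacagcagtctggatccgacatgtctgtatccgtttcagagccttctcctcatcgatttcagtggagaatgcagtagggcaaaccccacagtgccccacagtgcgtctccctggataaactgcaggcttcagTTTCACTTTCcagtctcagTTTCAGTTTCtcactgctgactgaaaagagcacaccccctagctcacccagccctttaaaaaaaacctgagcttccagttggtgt
The 2 matches begin 104 and 85 bases before the start and lie on the minus strand. The letters were in 12 of 35 promoters of the list (34.3%) against 2.66% of all 11108, 3.41% of those called higher and 2.07% of those called lower. Ifit1 was at 20.3, 9.94 and 22.9 CPM against 1.1, 2.12 and 2.58 CPM (log2 3.17, adjusted p = 7.58e-05) and was chosen after its values were seen.

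Cytokines and their receptors (58 listed, 52 tested) had 33 higher and 1 lower with a median of 1.99. The shared interleukin receptor chains Il2rb (80.7, 62.7 and 46.7 against 1.58, 2.32 and 2.88 CPM, log2 4.79, adjusted p = 1.02e-05) and Il2rg (33.1, 27.6 and 17.9 against 0.62, 0.386 and 1.35 CPM, log2 4.99, adjusted p = 4.2e-05), and the gut-homing receptor Ccr9 (9.23, 8.13 and 4.85 against 0.138, 0.129 and 0.349 CPM, log2 5.05, adjusted p = 2.75e-06), are genes of lymphocytes. They were highest in Bmi1-GFP replicate 1 and lowest in replicate 3, as the T cell marker sum was (3110, 1760 and 1360 CPM). That sum includes Il2rb itself, and the part of T cells was not tested. The epithelial chemokine Ccl6 went the other way (172, 194 and 233 against 721, 528 and 723 CPM, log2 -1.72, SE 0.30, adjusted p = 0.00016), and 2 members were lower without Bmi1-GFP replicate 2 or Lgr5-GFP-Cre replicate 2.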

How the data were processed

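Per the labels, reads were 75 bp and single-end. The deposited table gives raw read counts per gene as whole numbers, with no normalization by the authors. Bowtie2, TopHat2 2.0.6, DESeq2 and the build mm10 are named in the submitters' processing notes. The counting program, annotation and strand were not given in the sources used here. All columns were matched to samples by name (0 unmatched).

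The software was R 4.3.3 and edgeR 4.0.16. The filter was filterByExpr (minimum count 10, minimum total 15) and the scaling TMM. A single quasi-likelihood model covered 24 libraries of 11 groups, which pools their spread, and left out the 1 irradiated library. Every adjusted p is from this model, adjusted by Benjamini-Hochberg over 14837 genes, unless DESeq2 1.42.0 is named. The SE is the absolute log2 fold change over the square root of the F statistic. Folds against 0 reads use a floor of 3 reads over the group. In simulated data with 200 changed genes the fit recovered 48% of 2-fold and 83% of 4-fold changes, and 5 of 136 calls were unchanged genes. A gene not called is therefore not shown to be unchanged. RefSeq symbols (GRCm38.p6) were found for 13984 genes tested, or 14786 with synonyms. For 11108 there was a promoter sequence, whose 250 upstream bases were searched for motifs.

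The groups compared and the 51 gene lists were chosen with earlier results of these data known. Named genes are, per list, up to 4 called members of lowest adjusted p in the commoner direction and up to 2 in the other, with at least 5 CPM in the group where they are higher, and the most abundant member not called. Outside the lists they are the 15 largest changes per direction at 20 CPM or more without overlap. Some are left out for length, and some are not reported here. Ighm, Igha, Igkc, Trac and Sh2d6 were listed as markers and not found under those symbols. Alternatives were DESeq2's size factors and test, no filter on low counts, the 6 libraries alone, a replicate block and leaving out each library.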

Additional observations from a re-analysis of the deposited data

How the results depend on the processing

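The count of called genes was 7475 (4141 higher, 3334 lower). It was 7422 (4394 and 3028) with DESeq2's size factors, 7624 (4464 and 3160) by DESeq2's Wald test, 7257 with no filter on low counts, 6565 in the fit of the 6 libraries alone, and 6184 to 7260 when each library was left out in turn, fewest without Lgr5-GFP-Cre replicate 1. DESeq2's size factors moved the median log2 fold change by 0.06. In none of these alternatives was a called gene called in the opposite direction. Same-numbered replicates did not deviate together (correlations of -0.071, 0.007 and 0.051), so the numbers do not pair the samples; a fit with replicate number as a block called 5915 genes (3229 higher, 2686 lower). In that fit ribosomal proteins lower numbered 27, oxidative phosphorylation lower 3 and TRP channels higher 6, and Bmi1 and Gnas were not called (adjusted p = 0.164 and 0.0817). Over all alternatives, 70 of 1122 counts of list members moved by over 1.5 times. The cause of the lost calls was not tested.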

Other observations

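Outside the gene lists, several plasma protein genes of the liver and fetal gut were higher in Bmi1-GFP. Alpha-fetoprotein (Afp) was at 499, 305 and 109 CPM against 1.93, 2.64 and 3.28 CPM (edgeR log2 6.84, SE 0.63, adjusted p = 7.6e-07), the protease inhibitor Pzp at 60.7, 93.6 and 114 CPM against 0.0689, 0 and 0.437 CPM (log2 8.77, SE 0.97, adjusted p = 3.19e-06), and Ambp, the precursor of bikunin, at 131, 66.2 and 54.8 CPM against 1.03, 1.09 and 0.699 CPM (log2 6.50, SE 0.70, adjusted p = 2.52e-06). Afp and Ambp were highest in Bmi1-GFP replicate 1, and Pzp was highest in replicate 3. The transcription factor Etv1 was at 38.1, 58.2 and 37.7 CPM against 0, 0.193 and 0 CPM (adjusted p = 1.57e-07), and the tyrosine kinase Matk at 490, 414 and 201 CPM against 1.86, 3.47 and 2.93 CPM (adjusted p = 5.94e-06). Iapp, the islet amyloid hormone, was at 34.9, 19.7 and 13.6 CPM against 0.207, 0.129 and 0.349 CPM (adjusted p = 1.66e-06).

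Lower in Bmi1-GFP were genes named for the exocrine pancreas. Clps, the colipase that anchors pancreatic lipase, was at 169, 128 and 123 CPM against 1109, 673 and 1095 CPM (log2 -2.78, SE 0.56, adjusted p = 0.000602), and Sycn, the zymogen granule protein syncollin, at 2.59, 2.23 and 1.92 CPM against 25.9, 20.8 and 28 CPM (log2 -3.47, SE 0.39, adjusted p = 3.74e-06). Paneth cell markers were lower in the same libraries (6870 to 10700 against 40500 to 49800 CPM summed), and their part was not tested. The bHLH factor Atoh8 (1.82, 3.06 and 2.36 against 25.5, 21.6 and 21.4 CPM, adjusted p = 5.44e-06) and Tfpi, the inhibitor of tissue factor (3.29, 4.76 and 4.85 against 22.5, 20.9 and 28.8 CPM, adjusted p = 3.88e-06), were lower too.

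The share of calls in each direction changed with the level in Lgr5-GFP-Cre. Of genes below 0.5 CPM there, 50.0% were called higher and 0.98% lower in Bmi1-GFP, and of genes at 500 CPM or more, 6.13% were called higher and 53.6% lower. The grouping uses the same Lgr5-GFP-Cre values as the fold change, so these shares are partly set by it. Genes near 0 CPM there have little room to be called lower and could pass the filter through other groups. The letters CCGGAAG, bound by ETS factors, were in 8.74% of promoters of genes called higher, 18% of those called lower and 12.6% of all 11108, while the median GC content of these promoters was 59.6, 59.2 and 59.2%.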
